A study of Rattus norvegicus with 12 samples.

Results

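The aminoacyl-tRNA synthetases were followed in ventricular cardiomyocytes of newborn rats (NRVCM) that were left unstretched or stretched for 2, 6 or 24 h. The members were 36 genes, 20 for cytosolic and 16 for mitochondrial enzymes, and a gene counted as measured where the gene name of an array probe was that of a member. Under these names the array held 32 of the 36, 19 cytosolic and 13 mitochondrial, through 42 probes. All 32 were well above background on each of the 12 arrays, and all 32 were among the 14393 genes tested. The 4 listed genes without a probe of that name were Gars, Cars2, Hars2 and Iars2. Each of the 4 groups held 3 samples, labelled only as replicates and called cultures here, and each gave 1 one-colour array. All cells were first grown for 24 h in medium with 10% serum on collagen-coated silicone membranes. The stretched groups then received a pulsatile biaxial stretch of 20% for the stated time, and the controls stayed unstretched on similar membranes. The labels give no time in culture for the controls, and the same 3 control arrays served all stretch times, so time in culture and stretch cannot be told apart. These are primary cells of newborn animals in culture, and nothing in the labels says which animals or isolations the 12 samples came from, so p-values measure only the spread between these samples, which may be technical.

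An aminoacyl-tRNA synthetase joins an amino acid to its own tRNA, which carries it to the ribosome. The cytosol and the mitochondrion keep largely separate sets of these enzymes, both encoded in the nucleus. The mitochondrial set charges the tRNAs that read the few respiratory chain messages made inside the organelle, which in heart muscle is abundant. Several cytosolic synthetases are held together in the multisynthetase complex by 3 scaffold proteins. Genes of many cytosolic synthetases are known targets of ATF4, the transcription factor of the integrated stress response, which binds C/EBP-ATF response elements.

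Levels are given as the processed signal of a probe divided by the 75th percentile of its array, so a value of 1 equals that percentile. Levels of different probes are not comparable with each other. Changes are on the log2 scale, with their standard error, and a change was called where limma gave an adjusted p below 0.05, Benjamini-Hochberg adjusted over all genes tested. The 75th percentile of processed signal ran from 1142 to 1671 over the arrays, and 64.7 to 70.6% of spots were well above background. The controls, the 2 h group and the 6 h replicates 1 and 2 lay on 1 slide, and the 6 h replicate 3 and the 24 h group on the other. A comparison of 24 h with control therefore crosses slides, and only the 6 h replicate 3 links them. The defining cardiomyocyte markers were present, with the 14 listed genes summing to 930 to 983 in the controls, 953 to 1030 at 2 h, 890 to 923 at 6 h and 782 to 842 at 24 h. At 24 h 11 of the 14 fell and 2 rose, Nppa and Myl2, with a median change of -0.32. Of all genes tested 31.8% were called lower at 24 h and 16.2% higher. Scaled to the array median 1 cardiomyocyte marker fell and 3 rose, and scaled to spike-in spots 0 fell and 2 rose. At 24 h all 10 macrophage markers kept in the test fell (Mrc1 and Cd163 were too dim to be kept), with a median change of -1.44, and their sum went from 16.8 to 16.9 in the controls to 5.84 to 6.8. At 24 h 8 of 10 fibroblast markers fell as well, their sum going from 170 to 182 down to 123 to 142. A sum adds levels of different probes, so bright probes weigh most in it, and only sums of the same list are set side by side. Of the macrophage markers 9 still fell when arrays were scaled to their median or to spike-in spots, while of the fibroblast markers 3 and 0 did. Of 9 endothelial markers 6 fell and 1 rose at 24 h, their sum going from 3.28 to 3.49 down to 2.43 to 2.74. Of 8 smooth muscle and pericyte markers 5 fell, Myh11 by 1.07, and 1 rose, Cnn1, their sum going from 35.7 to 36 down to 29.9 to 31.6. Scaled to the array median 4 of each of these lists fell, and scaled to spike-in spots 0 endothelial and 1 smooth muscle marker did. In such bulk RNA, fewer cells of a type and less RNA per cell cannot be told apart, and the part of these shifts in the results below was not tested.

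After 24 h of stretch, most cytosolic synthetases had risen, and mitochondrial ones had moved in both directions. Of the 19 cytosolic genes, 11 rose (57.9%), 1 fell and 7 were not called, where 16.2% of all genes tested were called higher and 31.8% lower, 47.9% in all. Of the 13 mitochondrial genes, 2 rose (15.4%), 5 fell (38.5%) and 6 were not called, shares that lie near those of all genes. The median change was 0.17 for the cytosolic class and -0.11 for the mitochondrial class, beside -0.08 for all genes tested. No member changed 2-fold. The largest change was the 1.37-fold fall of Lars2, and the largest rises were those of Iars (1.33-fold) and Tars (1.32-fold). The values of the 3 stretched cultures lay wholly above those of the 3 controls for 13 cytosolic genes (20.4% of all genes did so), and wholly below for 6 mitochondrial genes (38.5% of all genes).

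Before 24 h few members moved. At 2 h no cytosolic gene was called by limma, where 3.09% of all genes were called higher, and 2 of 19, Iars and Rars, were at an unadjusted p below 0.05. Among mitochondrial genes Pars2 and Yars2 fell at 2 h, 2 of 13 (15.4%), where 6.12% of all genes were called lower and 9.21% were called in either direction. At 6 h the cytosolic Cars, Iars and Tars rose, 3 of 19 (15.8%) against 5.05% of all genes called higher, and the mitochondrial Fars2 fell, 1 of 13 against 11.7% of all genes called lower (16.7% either way). The class medians at 2 h were 0.01 for the cytosolic and -0.15 for the mitochondrial genes, beside -0.01 for all genes. The class medians at 6 h were 0.05 for the cytosolic and -0.04 for the mitochondrial genes, beside -0.05 for all genes. At 6 h the stretched cultures lay wholly above the controls for 6 cytosolic and 2 mitochondrial genes (13.3% of all genes did so) and wholly below for 4 mitochondrial genes (26.1% of all genes). At 2 h they lay wholly above for 3 cytosolic genes (12.4% of all genes) and wholly below for 4 mitochondrial genes (16.3% of all genes).

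**Figure D1:**
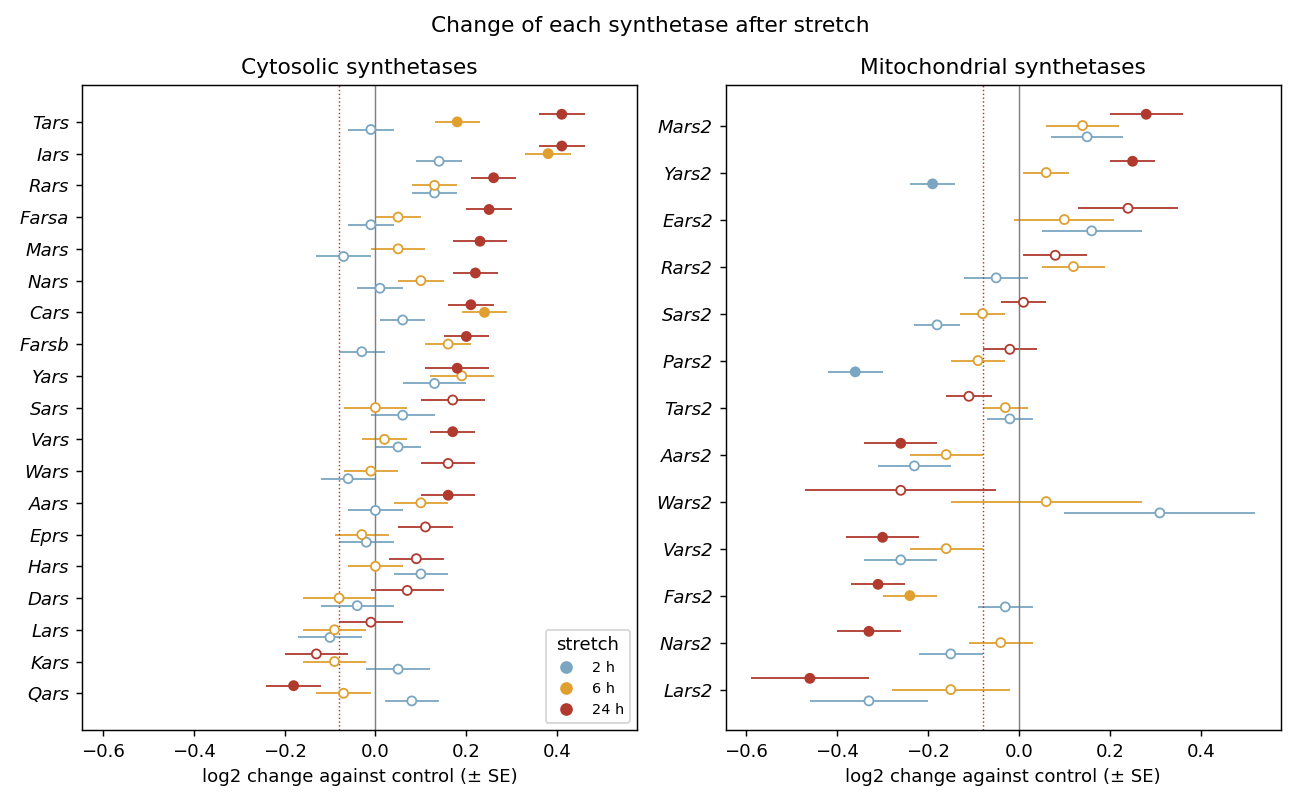
Log2 change against control (± SE, 3 cultures a group) of each cytosolic (left) and mitochondrial (right) synthetase after 2, 6 and 24 h of stretch. Filled points were called at an adjusted p below 0.05, and the dotted line is the median of all genes at 24 h. At 24 h most cytosolic points lie to the right of 0, up to 0.41, while mitochondrial points spread from -0.46 to 0.28.

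Iars and Tars, the isoleucine and threonine enzymes of the cytosol, had the largest cytosolic changes. Iars stood at 5.22, 5.18 and 5.26 in the controls, at 5.63, 5.85 and 5.83 after 2 h, at 6.98, 6.41 and 7.04 after 6 h, and at 7.06, 7.19 and 6.55 after 24 h. Every culture stretched for 6 or 24 h lay above every control and every 2 h culture. The change was 0.38 ± 0.05 at 6 h (SE, adjusted p = 0.00128) and 0.41 ± 0.05 at 24 h (adjusted p = 0.000121). At 2 h it was 0.14 ± 0.05 and was not called (adjusted p = 0.11), although the groups did not overlap. Tars stood at 5.75, 5.83 and 5.56 in the controls and at 5.91, 5.4 and 5.75 after 2 h. It stood at 6.36, 6.31 and 6.78 after 6 h and at 7.36, 7.79 and 7.56 after 24 h. The control and 2 h cultures overlapped, and the 6 and 24 h cultures formed 2 higher steps without overlap. Tars rose by 0.18 ± 0.05 at 6 h (adjusted p = 0.0326) and by 0.41 ± 0.05 at 24 h (adjusted p = 0.000106). Both 24 h calls held with each culture left out in turn and in all 11 other settings tried, including the slide as a block, which gave 0.33 for Iars and 0.31 for Tars. The 6 h call of Tars was lost with any 1 of the 6 cultures left out (adjusted p from 0.05 to 0.11), whereas that of Iars held (0.00271 to 0.00889).

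The array held another probe for Tars, 5′ of the first along the transcript. It rose by 0.36 ± 0.04 at 24 h, adjusted over all probes (adjusted p = 9.6e-05). The sequence is printed here, as the array files give it on the rn4 build, because 2 separate 60-base windows of 1 transcript carry the rise:
Tars, probe, chr2:60766282-60766341, minus strand: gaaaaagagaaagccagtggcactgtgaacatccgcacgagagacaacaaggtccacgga

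The multisynthetase complex holds 8 of the measured enzymes. At 24 h 3 of them rose, 1 fell and 4 were not called, where 16.2% of all genes were called higher and 31.8% lower. With the slide as a block Iars alone of the 8 was called. Besides Iars, the enzymes of the complex that rose were Mars, which also charges the initiator tRNA, and Rars, the arginine enzyme. Mars stood at 5.34, 5.99 and 5.81 in the controls and at 6.83, 6.57 and 6.7 after 24 h, and between them at 5.55, 5.52 and 5.25 after 2 h and 5.76, 5.56 and 6.43 after 6 h. The 24 h cultures lay above all others, with a change of 0.23 ± 0.06 (adjusted p = 0.0116), which was 0.05 with the slide as a block (adjusted p = 0.792). The Mars probe joins sequence spread over 561 bases of the genome, so it reads spliced message:
Mars, probe, chr7:67253210-67253770, minus strand: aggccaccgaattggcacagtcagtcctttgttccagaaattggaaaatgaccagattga

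Rars stood at 2.36, 2.52 and 2.58 in the controls, at 2.78, 2.73 and 2.62 after 2 h, at 2.7, 2.63 and 2.8 after 6 h, and at 3, 3.01 and 2.91 after 24 h. All 9 stretched cultures lay above the controls, but the 2 h and 6 h changes of 0.13 each were not called (adjusted p = 0.132 and 0.0983). At 24 h Rars rose by 0.26 ± 0.05 (adjusted p = 0.00139). Qars, the glutamine enzyme, was the 1 cytosolic gene that fell. It stood at 10.9, 12 and 12.2 in the controls, at 12.9, 12.4 and 11.7 after 2 h, at 10.9, 11.2 and 11.4 after 6 h, and at 10.8, 9.99 and 10.1 after 24 h. The 24 h change was -0.18 ± 0.06 (adjusted p = 0.0228), and it was above 0 where arrays were scaled to their median (0.08) or to spike-in spots (0.25). Without control replicate 2 or 3, or without 24 h replicate 2 or 3, the adjusted p was 0.0749, 0.0838, 0.0743 and 0.067. The 4 members of the complex that were not called changed little: Eprs, the fused glutamate and proline enzyme, by 0.11 (adjusted p = 0.126), Dars by 0.07, Lars by -0.01 and Kars, which serves both compartments, by -0.13 (adjusted p = 0.143).

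The 3 scaffold proteins of the complex rose at 24 h. The change was 0.34 ± 0.06 for Aimp1 (adjusted p = 0.000737), 0.42 ± 0.04 for Aimp2 (adjusted p = 1.85e-05) and 0.45 ± 0.07 for Eef1e1, also known as AIMP3 (adjusted p = 0.00034). Aimp2 had already risen by 0.17 at 2 h and by 0.31 at 6 h (adjusted p = 0.0245 and 0.00118). With the slide as a block the 24 h adjusted p was 0.0638 for Aimp1 and 0.0712 for Eef1e1, and 0.0112 for Aimp2.

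Of the 11 cytosolic synthetase genes outside the complex, 8 rose at 24 h and 3 were not called, where 16.2% of all genes were called higher and 31.8% lower. With the slide as a block Tars alone of the 11 was called. A difference between enzymes inside and outside the complex was not tested. Farsa and Farsb encode the 2 subunits of the phenylalanine enzyme. Farsa stood at 6.07, 6.63 and 6.11 in the controls, at 6.54, 5.94 and 6.16 after 2 h, at 6.29, 6.43 and 6.72 after 6 h, and at 7.35, 7.38 and 7.61 after 24 h. Its 24 h cultures lay above all 9 others, and the rise was 0.25 ± 0.05 (adjusted p = 0.00309). Farsb stood at 3.68, 3.76 and 3.73 in the controls, at 3.81, 3.43 and 3.72 after 2 h, at 4.22, 4.03 and 4.27 after 6 h, and at 4.18, 4.48 and 4.14 after 24 h. The 6 and 24 h cultures of Farsb overlapped each other and lay above the rest. Its change at 6 h just missed the threshold (0.16 ± 0.05, adjusted p = 0.0547), and at 24 h it rose by 0.2 ± 0.05 (adjusted p = 0.0104).

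Cars, the cysteine enzyme, was higher from 6 h on. It stood at 0.757, 0.832 and 0.837 in the controls, at 0.853, 0.833 and 0.84 after 2 h, at 0.947, 0.963 and 0.944 after 6 h, and at 0.984, 0.907 and 0.913 after 24 h. All cultures of 6 and 24 h lay above all of the control and 2 h cultures. Cars rose by 0.24 ± 0.05 at 6 h (adjusted p = 0.0117) and by 0.21 ± 0.05 at 24 h (adjusted p = 0.00664). Nars, the asparagine enzyme, stood at 0.777, 0.807 and 0.803 in the controls, at 0.794, 0.825 and 0.78 after 2 h, at 0.847, 0.799 and 0.919 after 6 h, and at 0.929, 0.952 and 0.906 after 24 h. The 6 h cultures of Nars straddled the others, and the 24 h cultures lay above every control. Nars rose by 0.22 ± 0.05 at 24 h (adjusted p = 0.00648; 0.06 with the slide as a block, adjusted p = 0.66), and by 0.4 ± 0.08 on its other probe, adjusted over all probes (adjusted p = 0.00253).

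Vars, Yars and Aars rose by smaller steps. Vars, the valine enzyme, stood at 0.377, 0.396 and 0.399 in the controls, at 0.415, 0.414 and 0.386 after 2 h, at 0.395, 0.385 and 0.41 after 6 h, and at 0.44, 0.452 and 0.426 after 24 h. The 24 h cultures of Vars lay above all others (0.17 ± 0.05, adjusted p = 0.0151). Yars, the tyrosine enzyme, stood at 1.53, 1.7 and 1.81 in the controls, at 1.81, 1.9 and 1.8 after 2 h, at 1.85, 1.91 and 1.97 after 6 h, and at 1.99, 1.95 and 1.77 after 24 h. For Yars the 24 h cultures overlapped the controls (0.18 ± 0.07, adjusted p = 0.0476). Aars, the alanine enzyme, stood at 8.2, 7.76 and 7.97 in the controls, at 8.23, 7.55 and 8.17 after 2 h, at 8.07, 8.4 and 9.23 after 6 h, and at 9.34, 8.62 and 8.79 after 24 h. The 24 h cultures of Aars lay above the controls, and replicates 2 and 3 lay below the 6 h replicate 3 (0.16 ± 0.06, adjusted p = 0.0495).

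The calls of Aars, Yars and Vars were the least stable of the cytosolic rises. Aars was not called with any 1 of the 6 cultures left out (adjusted p from 0.0562 to 0.158), and with the slide as a block its change was 0. The call of Yars was lost without control replicate 1 or 2 (adjusted p = 0.163 and 0.0778) and without 24 h replicate 1 or 2 (0.148 and 0.124), and that of Vars without 24 h replicate 2 (0.0528). The other 8 cytosolic rises held with each of the 6 cultures left out. The 3 genes that were not called were Wars (0.16 ± 0.06, adjusted p = 0.0533), Sars (0.17 ± 0.07, adjusted p = 0.068) and Hars (0.09 ± 0.06, adjusted p = 0.239).

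Among the mitochondrial enzymes, Fars2 and Nars2 had the falls at 24 h that held with every culture left out. Fars2, the phenylalanine enzyme of the mitochondrion, stood at 0.263, 0.276 and 0.29 in the controls, at 0.26, 0.289 and 0.266 after 2 h, at 0.232, 0.226 and 0.243 after 6 h, and at 0.221, 0.228 and 0.22 after 24 h. The 6 and 24 h cultures lay below all of the control and 2 h cultures. Fars2 fell by 0.24 on the log2 scale at 6 h (SE 0.06, adjusted p = 0.0157) and by 0.31 at 24 h (SE 0.06, adjusted p = 0.00118). The 6 h call was lost without control replicate 3 (adjusted p = 0.0616) and without 6 h replicate 1 or 2 (0.0583 and 0.0529). Nars2, the asparagine enzyme, stood at 0.166, 0.194 and 0.183 in the controls, at 0.151, 0.172 and 0.167 after 2 h, at 0.181, 0.178 and 0.167 after 6 h, and at 0.144, 0.142 and 0.146 after 24 h. The 24 h cultures of Nars2 lay below all 9 others, and Nars2 fell by 0.33 on the log2 scale (SE 0.07, adjusted p = 0.00272). These are the 60-base windows that the 2 falls were read from, on rn4:
Fars2, probe, chr17:34935194-34935253, minus strand: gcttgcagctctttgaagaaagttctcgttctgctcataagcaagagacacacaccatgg
Nars2, probe, chr1:154299065-154299124, plus strand: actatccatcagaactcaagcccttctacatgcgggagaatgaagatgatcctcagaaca

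Lars2, Vars2 and Aars2, the leucine, valine and alanine enzymes, also fell at 24 h, with wider spread. Lars2 and Aars2 gave the dimmest signals of the 32 members, and both were still called after normexp background correction. Lars2 stood at 0.0431, 0.0592 and 0.0624 in the controls, at 0.0427, 0.0471 and 0.0399 after 2 h, at 0.0502, 0.0428 and 0.0546 after 6 h, and at 0.0406, 0.0402 and 0.0377 after 24 h. The 24 h cultures lay below the controls, of which replicate 1 was low (-0.46 ± 0.13, adjusted p = 0.0169). The call of Lars2 was lost without control replicate 2 or 3 (adjusted p = 0.0629 and 0.0692) and without 24 h replicate 3 (0.0537). Vars2 stood at 0.166, 0.19 and 0.192 in the controls, at 0.158, 0.167 and 0.134 after 2 h, at 0.157, 0.168 and 0.163 after 6 h, and at 0.146, 0.144 and 0.155 after 24 h. Its 24 h cultures lay below the controls (-0.3 ± 0.08, adjusted p = 0.0144), and the call was lost without control replicate 2 or 3 (0.0516 and 0.0555). Aars2 stood at 0.047, 0.0494 and 0.0447 in the controls, at 0.0422, 0.0435 and 0.0352 after 2 h, at 0.0425, 0.0395 and 0.0445 after 6 h, and at 0.0405, 0.0379 and 0.0397 after 24 h. All 9 stretched cultures of Aars2 lay below the controls, and the 24 h change was called (-0.26 ± 0.08, adjusted p = 0.0232). That call was lost without control replicate 1 or 2 (0.0508 and 0.0804) and without 24 h replicate 2 or 3 (0.0746 and 0.0501).

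The direction of the mitochondrial falls depended on how the arrays were scaled. With spike-in spots as the scale, which moved the median of all genes to 0.35, the 24 h changes of Fars2, Nars2, Vars2 and Aars2 were 0.12, 0.1, 0.14 and 0.18, none of them called, and that of Lars2 was -0.03. With the array median as the scale, Aars2 was at 0.01.

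Mars2 and Yars2, the methionine and tyrosine enzymes, rose at 24 h. Yars2 stood at 0.19, 0.196 and 0.188 in the controls, at 0.168, 0.161 and 0.174 after 2 h, at 0.204, 0.196 and 0.196 after 6 h, and at 0.219, 0.231 and 0.232 after 24 h. The 2 h cultures lay below all others and the 24 h cultures above all others. Yars2 thus fell by 0.19 on the log2 scale at 2 h (SE 0.05, adjusted p = 0.028) and rose by 0.25 ± 0.05 at 24 h (adjusted p = 0.00116). The 2 h call was lost with any control left out or without 2 h replicate 1 or 2 (adjusted p from 0.0556 to 0.096), and the 24 h call held in each case. Mars2 stood at 0.076, 0.076 and 0.0708 in the controls, at 0.0876, 0.0852 and 0.0743 after 2 h, at 0.0815, 0.082 and 0.0827 after 6 h, and at 0.0932, 0.0967 and 0.0805 after 24 h. Its 24 h cultures lay above the controls (0.28 ± 0.08, adjusted p = 0.0142), and the call was lost without control replicate 3 or 24 h replicate 2 (0.0544 and 0.0569). The change of Mars2 was -0.05 after normexp background correction and -0.02 as the mean of its probes.

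Pars2, the proline enzyme of the mitochondrion, had the largest change of any member at 2 h that was called. It stood at 0.726, 0.718 and 0.731 in the controls, at 0.602, 0.506 and 0.586 after 2 h, at 0.653, 0.692 and 0.693 after 6 h, and at 0.726, 0.736 and 0.681 after 24 h. On this probe the 2 h cultures lay below all others, the 6 h cultures lay between them and the controls, and the 24 h cultures overlapped the controls again. The change was -0.36 ± 0.06 at 2 h (adjusted p = 0.00842) and -0.02 ± 0.06 at 24 h (adjusted p = 0.801). The 2 h call held with each culture left out (adjusted p from 0.0118 to 0.032), but not with spike-in scaling or with only the groups compared. The other probe of Pars2 did not return, and was still lower at 24 h (-0.25, limma adjusted over all probes, adjusted p = 0.0292). Of the mitochondrial genes not called against control at any time, Sars2 came closest at 2 h (-0.18, adjusted p = 0.0555), Ears2 changed by 0.24 and Rars2 by 0.08 at 24 h, and Tars2 by -0.11. Wars2 was uneven, with 0.191, 0.357 and 0.204 in the 2 h cultures and 0.186, 0.202 and 0.195 in the controls, so that 2 h replicate 2 stood apart.

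**Figure D2:**
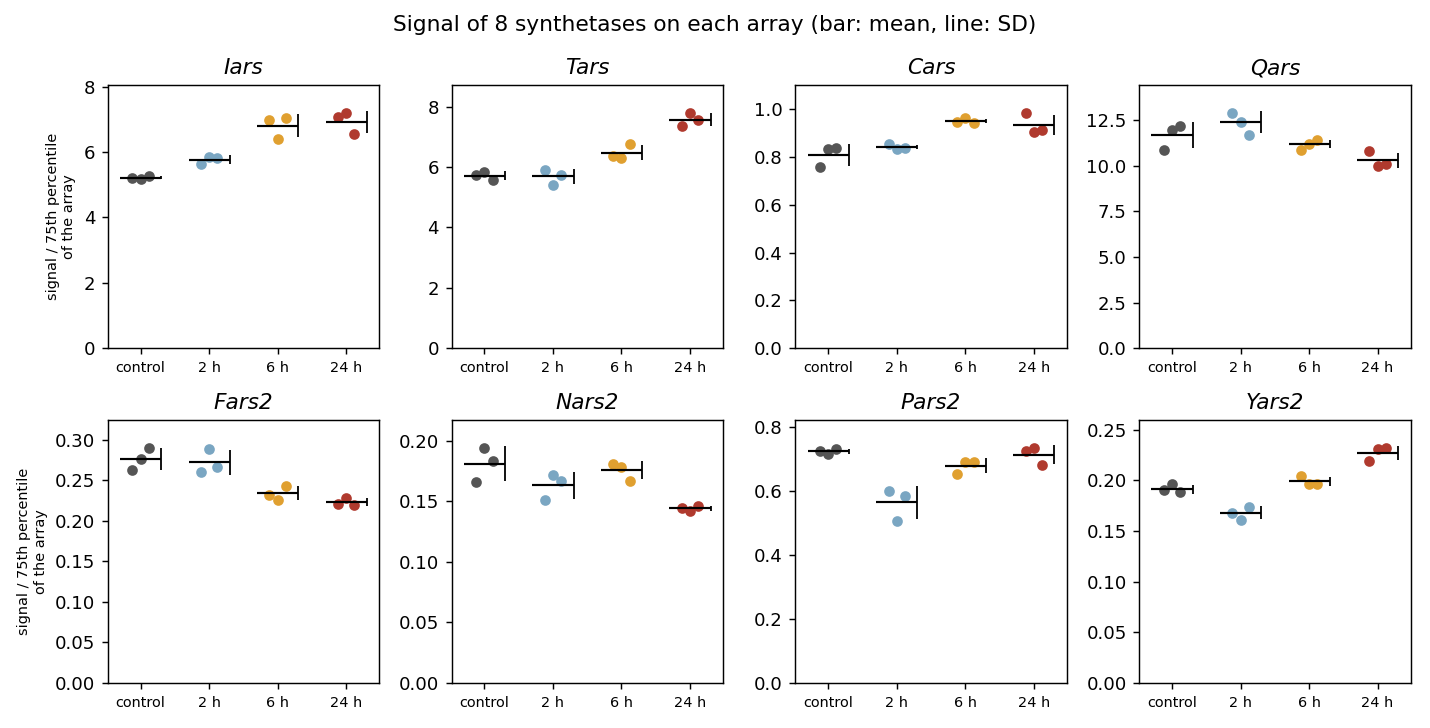
Signal of 8 synthetases on each of the 12 arrays, as multiples of the 75th percentile of the array, with the mean (bar) and SD (line) of the 3 cultures of a group; each axis starts at 0. Iars is higher at 6 h and stays so at 24 h, Tars rises at 6 h and again at 24 h, and their 24 h means are 6.93 and 7.57. Fars2 and Nars2 end below the controls, on the probe shown Pars2 is lowest at 2 h, and Yars2 dips at 2 h and ends highest.

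For 11 amino acids a cytosolic and a mitochondrial enzyme, each for that amino acid alone, were measured. Glutamate and proline share the fused cytosolic Eprs and were not counted, and Eprs, Ears2 and Pars2 were not called at 24 h. For 4 of them the cytosolic gene rose and the mitochondrial gene fell at 24 h: alanine, phenylalanine (both cytosolic subunits), asparagine and valine. For 2, methionine and tyrosine, both genes rose. For the other 5 at least 1 of the genes was not called, and for none did the mitochondrial gene rise while the cytosolic gene fell. The 4 opposite pairs rest on mitochondrial falls that depended on the scaling: there were 3 after normexp correction, 2 in the deposited matrix, 1 (phenylalanine) after quantile normalization, and 0 with array median scaling, spike-in scaling or the slide as a block. Leucine paired an uncalled Lars with a fall of Lars2, arginine and threonine paired rises of Rars and Tars with uncalled mitochondrial genes, and serine and tryptophan had no call. The mitochondrion has no glutamine enzyme of its own and makes its glutaminyl-tRNA by amidating glutamyl-tRNA with an enzyme of 3 subunits, Gatb, Gatc and Qrsl1. All 3 fell at 24 h, by 0.45 for Gatb (adjusted p = 0.00155), 0.21 for Gatc (0.00598) and 0.2 for Qrsl1 (0.00679), on the log2 scale. Scaled to the array median, the 3 changes were -0.18, 0.06 and 0.07, and none was called.

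Genes that the naming rule left out were found under other names. A probe pair named only by an Ensembl transcript was described in the files as glycyl-tRNA synthetase, an enzyme that serves both compartments. Its brighter probe stood at 24.8, 24.6 and 24.1 in the controls and at 28.7, 30.5 and 28.7 after 24 h, a rise of 0.26 ± 0.05 (adjusted p = 0.00142), while its other probe changed by -0.01. The brighter probe changed by 0.15 with the slide as a block (adjusted p = 0.25). Cars2, found through its accession, fell at 6 h and 24 h (-0.33 and -0.38, adjusted p = 0.00802 and 0.000867). Its 24 h change was -0.11 with array median scaling, 0.05 with spike-in scaling and -0.34 with the slide as a block, and was called in none of these (adjusted p = 0.199, 0.849 and 0.102). Hars2, found the same way, fell at 2 h (-0.19, adjusted p = 0.0285; 0.129 with array median scaling). No value is given for Iars2.

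Between stretch times, the cytosolic genes stepped up at different points. From 2 h to 6 h, Iars, Tars and Farsb rose, 3 of 19 (15.8%) where 3.69% of all genes were called higher. From 6 h to 24 h, Tars, Farsa and Vars rose, again 3 of 19, where 9.56% of all genes were called higher. Iars moved by 0.24 in the first interval and by 0.03 in the second, Tars by 0.19 and 0.22, and Farsa by 0.06 and 0.2. Among mitochondrial genes, Pars2 and Yars2 rose from 2 h to 6 h (0.27 and 0.24) and Fars2 fell (-0.21), 3 of 13 called where 10.5% of all genes were. From 6 h to 24 h Yars2 rose (0.2) and Nars2 fell (-0.29), 2 of 13 called where 25.0% of all genes were. Cultures of the later time lay wholly above those of the earlier one for 9 members from 2 h to 6 h and for 11 from 6 h to 24 h (12.8% and 19.6% of all genes), and wholly below for 3 and 6 members (21.8% and 26.0% of all genes). A difference among the 4 groups was called by the F test for 11 cytosolic and 6 mitochondrial genes, and for 52.9% of all genes. With the slide as a block no cytosolic gene was called in either interval. The calls of Tars, Nars2 and Yars2 from 6 h to 24 h held with each culture left out. Of the calls from 2 h to 6 h none did: those of Tars, Farsb and Fars2 were lost with any 1 of 6 cultures left out, that of Iars with 3, that of Pars2 with 4, and that of Yars2 without 6 h replicate 1 (adjusted p = 0.0567).

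For 9 members the array held more than 1 probe, and the probes did not always move alike. Tars and Nars rose at 24 h on both probes, and Kars changed by -0.13 and -0.08, neither called. The brighter Wars probe changed by 0.16 at 24 h and the other by -0.04 (adjusted over all probes, adjusted p = 0.0596 and 0.594). For Tars2 the brighter probe was not called (-0.11, adjusted p = 0.108), while the other fell (-0.33, adjusted p = 0.00208). For Pars2 both probes fell at 2 h (-0.36 and -0.37), and the other probe was also lower at 6 h and 24 h (-0.29 and -0.25, adjusted p = 0.0441 and 0.0292). For Wars2 the other probe fell at 2, 6 and 24 h (-0.44, -0.5 and -0.44). For Mars2 the other probe changed by -0.32 with an SE of 0.27 (adjusted p = 0.352), and the second probe of Ears2 by -0.07. The second probes of Wars, Tars2 and Pars2 are printed because they moved apart from the first at 24 h, and for Tars2 and Pars2 the call turned on which window was read:
Wars, probe, chr6:133203751-133203810, minus strand: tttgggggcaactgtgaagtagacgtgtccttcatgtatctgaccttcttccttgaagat
Tars2, probe, chr2:190538230-190538289, minus strand: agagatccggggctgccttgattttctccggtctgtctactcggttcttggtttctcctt
Pars2, probe, chr5:127731248-127731307, plus strand: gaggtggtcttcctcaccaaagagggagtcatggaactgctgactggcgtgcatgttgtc

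Promoters of the synthetases were searched for 3 motifs on both strands, in the 300 bases from 250 before to 50 after the annotated start (RefSeq, GRCr8). Windows were found for 30 of the 32 members, all but Dars and Rars, and 1 window was read for each. The C/EBP-ATF response element core TGATGNAA was present in 7 of 17 cytosolic and 0 of 13 mitochondrial windows, beside 3.98% of the 33469 windows of all genes. The 7 genes were Aars, Cars, Iars, Mars, Nars, Tars and Yars, and all 7 were among the 10 cytosolic genes with a window that rose at 24 h. The windows of the other 3, Farsa, Farsb and Vars, and of the 7 other cytosolic genes held no match. Of the 10 that rose, Iars and Tars alone were called with the slide as a block. The call of Aars was lost with any 1 of the 6 cultures left out, and that of Yars with 4 of them. The E-box CACGTG, to which Myc and Max bind, was present in 5 of 17 cytosolic windows (Aars, Farsb, Iars, Tars and Vars), in 1 of 13 mitochondrial windows (Ears2) and in 6.42% of all windows. The palindromic site of NRF-1, an activator of mitochondrial genes, was present in Wars2 alone of the members and in 0.852% of all windows. No matches of different motifs overlapped in the members' windows. The matches are descriptions of the sequence, and binding was not measured here.

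The 250 bases before the start are printed for 4 of the 5 cytosolic genes that rose and hold the core upstream of the start, with the matches in capitals. In Tars, Iars and Mars the response element core begins 27, 24 and 17 bases before the start, and in Aars 112 bases before it. Capitals of 6 letters mark the E-box.
Tars, promoter, chr2:62114803-62115052, minus strand: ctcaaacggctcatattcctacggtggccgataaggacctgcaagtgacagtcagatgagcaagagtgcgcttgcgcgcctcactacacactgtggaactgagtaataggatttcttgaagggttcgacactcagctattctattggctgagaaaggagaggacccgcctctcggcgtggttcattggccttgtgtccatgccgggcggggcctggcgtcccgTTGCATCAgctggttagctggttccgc
Iars, promoter, chr17:15193653-15193902, minus strand: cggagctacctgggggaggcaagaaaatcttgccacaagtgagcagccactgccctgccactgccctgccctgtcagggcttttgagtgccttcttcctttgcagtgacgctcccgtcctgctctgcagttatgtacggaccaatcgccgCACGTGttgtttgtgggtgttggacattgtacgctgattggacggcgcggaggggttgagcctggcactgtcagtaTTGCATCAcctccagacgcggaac
Mars, promoter, chr7:65023754-65024003, minus strand: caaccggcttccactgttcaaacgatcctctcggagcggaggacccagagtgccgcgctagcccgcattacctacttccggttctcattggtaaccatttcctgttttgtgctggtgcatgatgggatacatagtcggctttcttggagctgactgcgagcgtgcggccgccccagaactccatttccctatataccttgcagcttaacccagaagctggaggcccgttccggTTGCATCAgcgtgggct
Aars, promoter, chr19:55908232-55908481, plus strand: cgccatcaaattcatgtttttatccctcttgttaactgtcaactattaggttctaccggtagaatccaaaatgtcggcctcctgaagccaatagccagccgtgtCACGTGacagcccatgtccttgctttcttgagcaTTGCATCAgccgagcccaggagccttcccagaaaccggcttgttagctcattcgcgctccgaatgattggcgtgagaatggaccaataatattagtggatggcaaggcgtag

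**Figure D3:**
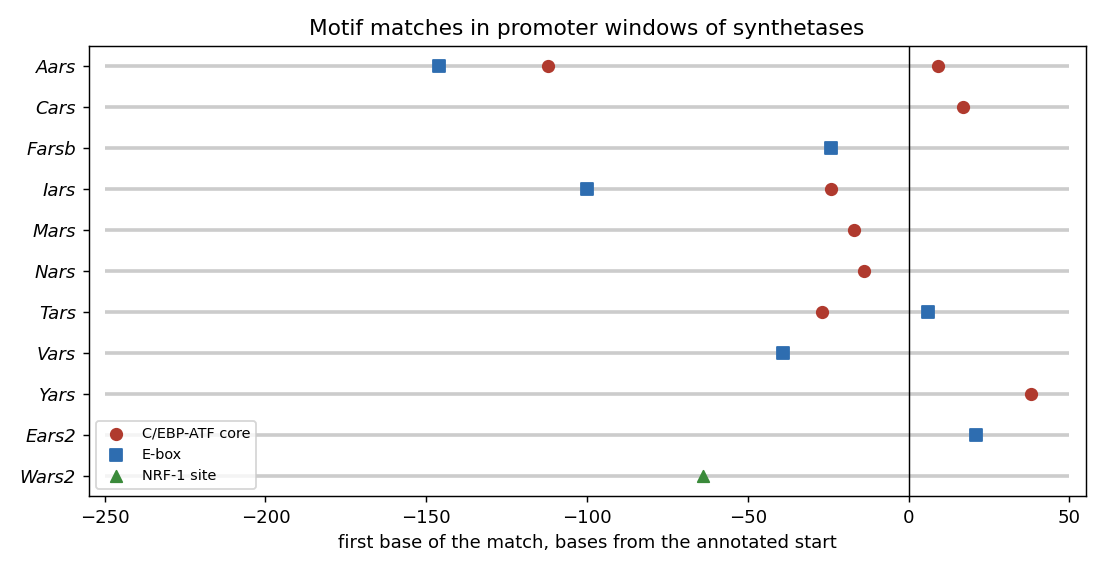
Position of each motif match, as the distance in bases of its first base from the annotated start, in the promoter windows of the members with at least 1 match (grey lines span 250 bases before to 50 bases after the start). The response element core (circles) occurs in 7 cytosolic genes and, in Iars, Mars, Nars and Tars, within 30 bases before the start.

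The genes that accompany the synthetases in translation and in the ATF4 response moved unevenly at 24 h, when 16.2% of all genes were called higher and 31.8% lower. Of 29 tested genes of the integrated stress response and ATF4 targets, 14 rose and 3 fell, with a median change of 0.14. Gdf15, a stress cytokine, rose by 1.65, Atf3 by 1.56 and Mthfd2, an enzyme of mitochondrial folate metabolism, by 0.66. Atf4 itself rose by 0.25 at 6 h and by 0.38 at 24 h (adjusted p = 0.006 and 0.000111). The amino acid transporters Slc7a1, Slc7a11 and Slc3a2 rose at 24 h, by 0.58, 0.49 and 0.41. Other ATF4 targets did not rise: Trib3 fell at 2, 6 and 24 h (-0.25, -0.39 and -0.23), and Asns (0.11, adjusted p = 0.147) and Chac1 (-0.13, adjusted p = 0.172) were not called. Trib3 at 24 h was at 0.04 on the array median scale and at 0.2 on the spike-in scale. Of 16 genes for eIF2, its kinases and its phosphatase, 6 rose and 2 fell, and Ppp1r15a, which encodes the inducible phosphatase subunit GADD34, rose by 0.66.

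Of 29 genes for Myc and ribosome biogenesis, 21 rose and 1 fell, with a median change of 0.45. Myc rose by 1.07, Gnl3 by 0.67 and Wdr12 by 0.57. Of 24 genes for tRNA processing, export, editing and modification, 8 rose and 3 fell. Trmt61a and Nsun2, which methylate tRNA, rose by 0.58 and 0.52, and Aarsd1, which clears wrongly charged tRNA of alanine, rose by 0.38. Of 12 mitochondrial translation factors none rose by limma and 5 fell, with a median change of -0.06 beside the -0.08 of all genes. Besides the 3 amidotransferase subunits these were Gfm2 (-0.4) and Mrrf (-0.34), which act in ribosome recycling. With the slide as a block no gene of the 12 was called, and scaled to the array median 7 rose and none fell. Of the ribosomal proteins themselves, 13 of 71 mitochondrial ones rose and 5 fell (median 0.04), and 3 of 86 cytosolic ones rose and 7 fell (median -0.05). With array median scaling 61 of each rose and 0 fell (medians 0.31 and 0.22), where 48.4% of all genes were called higher. With spike-in scaling 36 mitochondrial and 12 cytosolic ones rose and 0 fell, where 33.8% of all genes were called higher. Of a list of 8 genes for cytosolic elongation, 2 rose and 2 fell, while with array median scaling 6 rose and 0 fell. The 2 falls of the main fit were those of Eef1a1 (-0.18, adjusted p = 0.0496) and Eef2k (-0.45), which encodes a kinase and not an elongation factor. With the slide as a block, the calls at 24 h were 13 higher of the 29 ribosome biogenesis genes, 5 higher and 1 lower of the 29 stress response genes and 2 higher and 1 lower of the 24 tRNA genes. Scaled to the array median, no gene of these 3 lists fell.

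**Figure D4:**
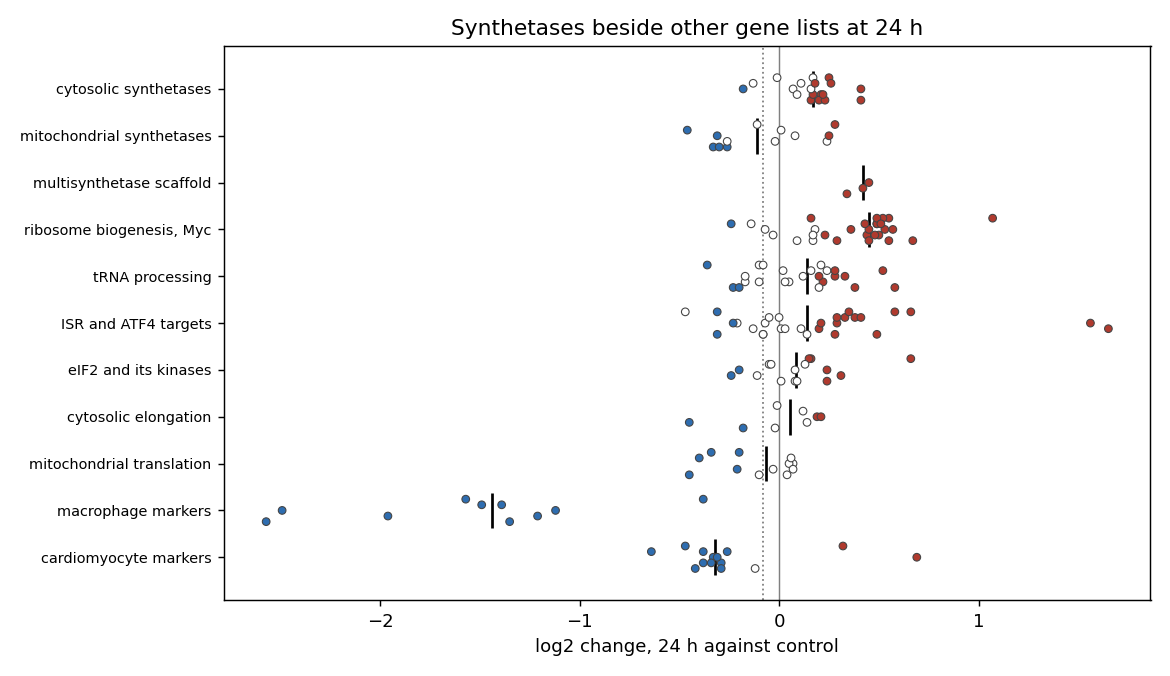
Log2 change at 24 h against control of each gene of the 2 synthetase classes, of 7 other lists and of 2 lists of cell type markers (1 point a gene; red called higher, blue called lower, open not called; black bar, list median; dotted line, median of all genes). The list medians are 0.17 for cytosolic synthetases, -0.11 for mitochondrial synthetases, 0.45 for ribosome biogenesis genes and -1.44 for macrophage markers.

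The slide and the scaling set how many synthetases were called. With the slide as a fixed block, the 24 h counts were 2 of 19 cytosolic genes, both higher (Iars and Tars), and 1 of 13 mitochondrial genes, lower (Fars2), where 3.45% of all genes were called higher and 10.8% lower. The 24 h changes of the other cytosolic genes that had risen were then between 0 (Aars) and 0.23 (Cars), with 0.05 for Mars, 0.06 for Nars, 0.1 for Vars and 0.11 for Yars. Those of Lars2 and Nars2 were -0.69 and -0.22 (adjusted p = 0.0821 and 0.262). On the first slide alone, the 6 h change of Iars was 0.36 (adjusted p = 0.015) and that of Cars 0.24 (adjusted p = 0.0488), and the 2 h change of Pars2 was -0.36 (adjusted p = 0.0332). The other 3 calls were lost there: Tars at 6 h (0.15, adjusted p = 0.153), Fars2 at 6 h (-0.27, adjusted p = 0.0514) and Yars2 at 2 h (-0.19, adjusted p = 0.0716). Scaled to the array median, 17 cytosolic and 7 mitochondrial genes were called at 24 h, all higher, where 48.4% of all genes were called higher and 11.9% lower. Scaled to spike-in spots the counts were 16 and 4, all higher, where 33.8% of all genes were called higher and 3.96% lower. After quantile normalization 11 cytosolic genes were higher and 1 lower, and 3 mitochondrial genes were higher and 1 lower, where 23.2% of all genes were called higher and 20.4% lower. The distance of the cytosolic median from the median of all genes at 24 h was between 0.17 and 0.34 over 6 scalings, at 6 h between 0.04 and 0.17, and at 2 h between 0 and 0.05. For the mitochondrial class it was between -0.04 and 0.03 at 24 h, between -0.03 and 0.01 at 6 h and between -0.14 and -0.09 at 2 h. Array median and spike-in scaling shift all genes of an array alike and so leave this distance as it was, which makes 4 of the 6 scalings separate. With the slide as a block the 24 h distance was 0.14 for the cytosolic and -0.06 for the mitochondrial class, and as the mean over probes the mitochondrial one was -0.13.

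**Figure D5:**
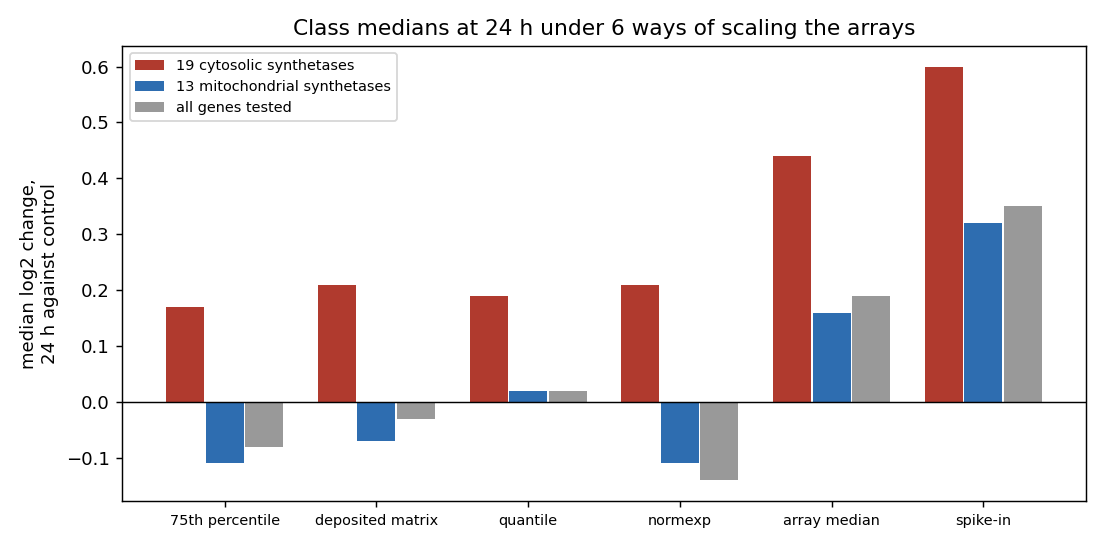
Median log2 change at 24 h against control of the 19 cytosolic synthetases, the 13 mitochondrial synthetases and all genes tested, under 6 ways of scaling the arrays. The cytosolic bar is above the all-gene bar by 0.17 to 0.34 in each, and the mitochondrial bar stays within 0.04 of it.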

How the data were processed

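Total RNA of 12 cultures was labelled with Cy3 and hybridised to 1-colour Agilent arrays of 60-base probes on 2 slides, per the labels' protocols and the file headers. The deposited scanner files hold probe intensity as Agilent Feature Extraction 11.0.1.1 wrote it, per the file headers (the submitters' processing notes name 10.7.3.1), with well-above-background flags as other columns. The authors' deposited series matrix holds linear intensity, scaled between arrays in a way no header or label states, with column medians of 7.02 to 7.14 on the log2 scale. From the files, log2 of the processed signal minus the 75th percentile of each array was computed, outlier spots were left out, and replicate spots were averaged. A probe was kept if well above background on all 3 arrays of a group (19017 of 30367), and each gene was read from its brightest kept probe. Probes were named from the files and RefSeq, and 2036 kept probes had no name. Groups were compared with limma 3.58.1 in R 4.3.3, in 1 fit of all 12 arrays, after the script had been tested on simulated data. Members called against control are given with each array's value, the others by change or range, and of other lists up to 3 called genes and those the text singles out after their values were seen. Members and lists were chosen with earlier results of these data known. Alternatives covered background correction, scaling, deposited values, filter, slide, replicate block, groups in the fit, probe choice and each culture left out. The number of arrays limits the precision.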

Additional observations from a re-analysis of the deposited data

Results flagged for a closer look

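Changes that differed between stretch times, by a limma test of the later against the earlier time, adjusted over all genes tested, were found for 9 members. From 2 h to 6 h 6 of 32 members were called (18.8%), where 10.5% of all genes were. From 6 h to 24 h 5 of 32 were called (15.6%), below the 25.0% of all genes. From 2 h to 6 h the differences were 0.24 for Iars, 0.19 for Tars, 0.19 for Farsb, 0.27 for Pars2, 0.24 for Yars2 and -0.21 for Fars2, with adjusted p from 0.0119 to 0.0417. From 6 h to 24 h they were 0.22 for Tars, 0.2 for Farsa, 0.15 for Vars, 0.2 for Yars2 and -0.29 for Nars2, with adjusted p from 0.00856 to 0.0492. In each case the 3 cultures of the later time did not overlap those of the earlier one. Of all genes, 12.8% lay wholly higher and 21.8% wholly lower at 6 h than at 2 h. From 6 h to 24 h these shares were 19.6% and 26.0%. None of the calls from 2 h to 6 h held with every culture left out, while those of Tars, Nars2 and Yars2 from 6 h to 24 h did. With the slide as a block no cytosolic gene was called in either interval.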

How the results depend on the processing

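Iars and Tars kept their direction and their call at 24 h under all 11 alternatives, and the counts below, of members called with an adjusted p below 0.05, show what else moved. The share of all genes called also changed with the setting, so a count alone is not a result about the synthetases. At 2 h the mitochondrial count of 2 was 1 after quantile normalization, array median scaling, no filter on dim probes, the replicate block or slide 1 alone, 0 with spike-in scaling or only the groups compared, and 4 in the deposited matrix. At 6 h the cytosolic count of 3 was 8 with array median scaling, 15 with spike-in scaling and 5 in the deposited matrix, and the mitochondrial count of 1 was 0 after quantile normalization, in the deposited matrix and on slide 1 alone and 6 with spike-in scaling. The 6 h median of all genes was 0.07 with array median scaling, 0.43 with spike-in scaling and -0.02 in the deposited matrix, beside -0.05 in the main fit. At 24 h the cytosolic count of 12 was 2 with the slide as a block, and the mitochondrial count of 7 (2 higher and 5 lower) was 4 after quantile normalization (3 higher and 1 lower), 4 with spike-in scaling (all higher) and 1 with the slide as a block (lower). Of all genes, 16.2% were called higher and 31.8% lower at 24 h in the main fit. These shares were 3.45% and 10.8% with the slide as a block, 23.2% and 20.4% after quantile normalization and 33.8% and 3.96% with spike-in scaling. From 2 h to 6 h the cytosolic count of 3 was 1 after normexp correction or with the replicate block and 0 with spike-in scaling, no filter, the slide as a block, only the groups compared or slide 1 alone. The mitochondrial count of 3 was 1 with no filter, the slide as a block or the replicate block, and 0 after normexp correction, with spike-in scaling, only the groups compared or slide 1 alone. From 6 h to 24 h the cytosolic count of 3 was 14 with array median scaling, 5 in the deposited matrix and 0 with spike-in scaling or the slide as a block, and the mitochondrial count of 2 was 4 with array median scaling and 0 with spike-in scaling or the slide as a block. For any difference among the 4 groups the cytosolic count of 11 was 17 with array median scaling and 1 with the slide as a block, and the mitochondrial count of 6 was 3 with the slide as a block. The cause was not tested; the block leaves 1 array, the 6 h replicate 3, to link the slides.

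With one culture left out at a time, the counts ran as follows for cytosolic and mitochondrial members: from 0 to 0 and from 1 to 2 at 2 h, from 2 to 2 and from 0 to 1 at 6 h, from 9 to 11 and from 4 to 7 at 24 h, from 0 to 1 and from 0 to 2 between 2 h and 6 h, from 1 to 4 and from 2 to 2 between 6 h and 24 h, and from 7 to 11 and from 4 to 7 for any difference. With all 12 arrays, 9.21% of all genes were called at 2 h, 16.7% at 6 h and 47.9% at 24 h. The share was 10.5% between 2 h and 6 h, 25.0% between 6 h and 24 h and 52.9% for any difference. Shares of all genes with a culture left out are not given here.

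Changes that were called in at least 1 of the 2 fits and differed in sign with spike-in scaling were, at 6 h, Eprs at 0.46, Hars at 0.48, Wars at 0.47, Fars2 at 0.24 and Tars2 at 0.45, at 24 h, Qars at 0.25, Aars2 at 0.18, Fars2 at 0.12, Nars2 at 0.1 and Vars2 at 0.14, and from 2 h to 6 h, Fars2 at 0.09. In the main fit the 6 h changes of Eprs, Hars, Wars and Tars2 were -0.03, 0, -0.01 and -0.03, none of them called. With array median scaling, Lars was at 0.26, Qars at 0.08, Aars2 at 0.01, Pars2 at 0.25 and Tars2 at 0.16 at 24 h. Of these, Lars, Pars2 and Tars2 were not called in the main fit (-0.01, -0.02 and -0.11). Aars2 was at 0.02 after quantile normalization, Aars at 0 with the slide as a block, and Mars2 at -0.05 after normexp correction and at -0.02 as a mean over probes.

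Same-numbered replicates did not deviate together: the correlation of their deviations ran from -0.11 to 0.1 over 18 pairs. The replicate numbers were therefore not taken as pairs. With the replicate block 10 cytosolic and 7 mitochondrial members were called at 24 h, where 15.3% of all genes were called higher and 30.9% lower.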
